A study of Mus musculus with 24 samples.

Results

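The genes described here encode metabotropic glutamate receptors (mGluRs). They are 6 genes, Grm2, Grm3, Grm4, Grm5, Grm7 and Grm8, chosen by their symbols, and each matched a single Ensembl identifier among the 38293 genes of the mRNA count table. All 6 passed the filter on low counts and are among the 18593 genes tested. Both mRNA and small RNA were sequenced from the nucleus accumbens (NAc) of C57BL/6J mice, to compare how males and females respond to Subchronic Variable Stress (SCVS), in which foot shock, tail suspension and physical restraint alternate from day to day. The 4 groups were unstressed males (NSM), stressed males (SM), unstressed females (NSF) and stressed females (SF), with 3 mRNA libraries and 3 small RNA libraries each. The mice were 9 weeks old by the labels, and the females were gonadally intact and in estrus or proestrus. Punches were collected on the day after the last stressor, and for each library 10 punches from 5 mice were pooled. The spread between libraries is therefore a spread between pools and shows nothing of single mice.

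mGluRs are G protein-coupled receptors that tune glutamate transmission more slowly than the ionotropic receptors. Group I receptors, here Grm5, act mainly after the synapse through Gq, phospholipase C and release of calcium from internal stores, and are tethered there by Homer and Shank proteins. Group II (Grm2 and Grm3) and group III receptors (Grm4, Grm6, Grm7 and Grm8) couple to Gi/o proteins, lower cAMP and mostly hold back transmitter release from axon terminals. In the NAc, mGluR5 is made by the medium spiny neurons themselves, whereas a presynaptic receptor on cortical terminals is made from mRNA that lies mainly in cell bodies outside the nucleus. A change in the level of an mRNA in bulk tissue can come from fewer cells of a type or from less RNA per cell, and these libraries cannot tell them apart.

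In the GENCODE annotation of NCBIM37, the build of the deposited files, all 6 are protein-coding genes. Grm2 lies on the minus strand of chr9:106546868-106558440 and Grm3 on the minus strand of chr5:9485236-9725352. Grm4 lies on the minus strand of chr17:27559332-27650286, and Grm5 on the plus strand of chr7:94750952-95283417. Grm7 and Grm8 share a chromosome, Grm7 on the plus strand of chr6:110595575-111517224 and Grm8 on the minus strand of chr6:27225121-28085178. The exons of Grm7 overlap an antisense noncoding transcript, which was itself counted at 125 to 198 reads per library. The library kit does not mark strand, so reads of the shared stretch cannot be told apart, against 3396 to 5554 reads for Grm7.

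Of the miR precursors in the small RNA table, 1 lies inside these genes. The precursor mir-592 sits at chr6:27886655-27886750 on the same strand as Grm8, in an intron of its protein-coding transcripts and within an exon of the noncoding transcript Grm8-004. Its sequences are shown because the small RNA libraries offer a second readout of the Grm8 locus in the same pools. They were taken from RefSeq (GRCm38.p6), with bases 2 to 8 of each mature miR, the seed, in capitals, and with the mature miRs in capitals in the hairpin.
mmu-miR-592-5p: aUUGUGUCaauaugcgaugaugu
mmu-miR-592-3p: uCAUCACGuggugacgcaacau
Mir592 hairpin: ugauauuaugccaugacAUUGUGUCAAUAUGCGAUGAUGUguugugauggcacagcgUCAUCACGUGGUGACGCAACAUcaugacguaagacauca
The arms differ in their seeds and so form no shared seed group.

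The mRNA libraries held 41076780 to 60867747 counted reads and the small RNA libraries 5086554 to 13522287. The tissue label was checked against markers of medium spiny neurons, the main cell type of the NAc, which summed to 5716 to 7153 CPM (reads scaled to a common library size with TMM factors) in every library. A list of 12 markers of cortical glutamatergic neurons summed to 145 to 168 CPM in NSM, 221 to 360 in SM, 172 to 516 in NSF and 199 to 281 in SF. Most of the NSM sum was 6330527O06Rik (Lamp5), at 93.7 to 107 CPM in NSM and 80.2 to 105 in NSF. Cux2 and Rorb also changed little, with means of 25.4 and 16.3 CPM in NSM and 25.8 and 18.1 in NSF. Slc17a7 was at 4.02 to 16.4 CPM in NSM, 39.5 to 162 in SM, 16.4 to 297 in NSF and 34.5 to 93.2 in SF. The sums therefore mute the shift of markers such as Slc17a7. None of the 12 was at 0 in any library. NSF1 and NSF3 had the highest sums, 397 and 516 CPM, followed by SM3 at 360 CPM and SM2 at 313 CPM. Receptor results that rest on NSF1 and NSF3 are given with and without them. The choroid plexus markers summed to 110 CPM in NSM1 against 33.6 to 45.0 in the other libraries. This difference came from Ttr alone, at 66.1 CPM in NSM1 and 0.487 to 2.62 CPM elsewhere, and without it the sums were 32.9 to 44.5 CPM over all libraries.

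To compare levels between receptors, reads were divided by merged exon length (RPKM). Grm5 was the most abundant, with a mean of 66.6 RPKM over the 12 libraries (range 59.7 to 75.4), above 96.4% of the 17795 tested genes with an annotated length. Grm3, the group II receptor that astrocytes also make, followed at 35.3 RPKM (31.2 to 41.2). Grm4 and Grm7 came next at 15.5 RPKM (11.3 to 19.1) and 15.3 RPKM (14.3 to 16.3). Grm2 was far below at 1.01 RPKM (0.689 to 2.05), as was Grm8 at 0.528 RPKM (0.352 to 0.793). The merged exon length of Grm8 includes the exons of a noncoding transcript. With the exons of protein-coding transcripts only, a choice made after the values were seen, Grm8 was at 1.02 RPKM (0.678 to 1.53) and Grm2 at 1.01, so their order rests on the length used.

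**Figure D1:**
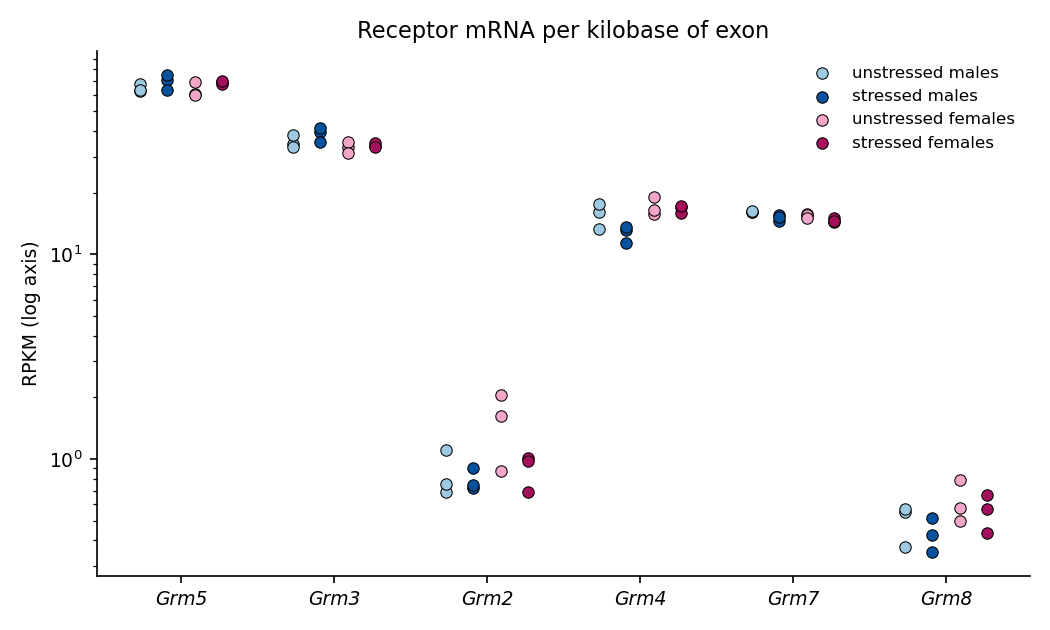
RPKM of the 6 receptors on a log axis, with 1 point per library and a color per group. Grm5 and Grm3 lie highest in every group, and Grm2 and Grm8 lie far below the other receptors.

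Grm5 lay above Grm3 in each group, and Grm3 above Grm4 and Grm7, without overlap and with either length. The order of Grm4 and Grm7 rests on the length too. With all exons the mean of Grm7 was 1.03-fold that of Grm4 in NSM and 1.19-fold in SM, while Grm4 was 1.10-fold above Grm7 in NSF and 1.14-fold in SF. With the exons of protein-coding transcripts only, Grm7 had the higher mean in every group, and the ranges overlapped in both female groups. Grm6, the group III receptor of retinal bipolar cells, had 4 reads in all, in 4 of the 12 libraries.

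Spread over the libraries differed between receptors on the CPM scale. The highest library of Grm7 was 1.14-fold its lowest, and the same ratio was 1.26 for Grm5 and 1.32 for Grm3. It was 1.68 for Grm4, 2.25 for Grm8 and 2.97 for Grm2. The receptors with the widest spread, Grm2 and Grm8, also had the fewest reads, at 95 to 320 and 130 to 293 per library.

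**Figure D2:**
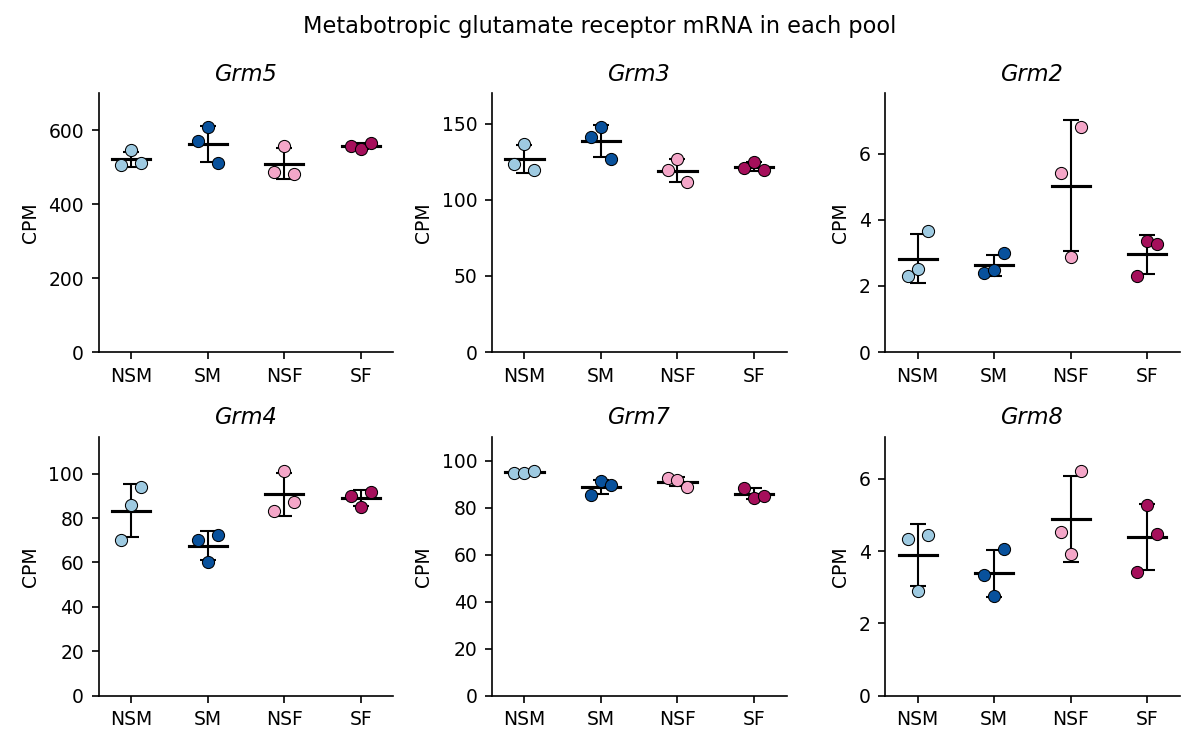
CPM of each receptor in each mRNA library (points), with the mean and SD of the 3 libraries of a group (bars), from unstressed males (NSM), stressed males (SM), unstressed females (NSF) and stressed females (SF). Grm2 stands high in 2 of the 3 NSF libraries, and Grm4 of every SM library lies below every SF library.

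The effect of SCVS in males was tested by SM against NSM. A gene was called where the unadjusted p lay under 0.05 and the fold reached 1.3 or more in either direction, in a voom-limma fit over all 12 libraries. None of the 6 receptors was called, against 6.44% of all tested genes. Without the fold criterion 2 of 6 had a p under 0.05, Grm4 and Grm7, where the share over all genes was 21.5%, and edgeR and DESeq2 also called 0. The median log2 fold change of the receptors was -0.08 and that of all genes -0.01.

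Among the group III receptors, Grm4, a presynaptic receptor of basal ganglia circuits, had 70.3, 85.8 and 94.0 CPM in NSM1 to NSM3 and 70.2, 60.2 and 72.2 CPM in SM1 to SM3. SM2 was the lowest library, and NSM1 lay among the stressed libraries, so the groups overlapped. The log2 fold change was -0.30 (SE 0.10), with an unadjusted p of 0.0112 and an adjusted p of 0.122 by voom-limma. It fell short of the fold criterion. Without NSM1 the log2 fold change was -0.41 and Grm4 was called.

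Grm7, a low-affinity receptor of the presynaptic active zone, was at 94.7, 94.9 and 95.8 CPM in NSM and at 85.5, 91.4 and 89.7 CPM in SM. Every stressed library lay below every unstressed library. It was the 1 receptor of 6 whose groups did not overlap in males, where the groups of 23% of all genes did not. The difference was small, with a log2 fold change of -0.10 (SE 0.04, voom-limma adjusted p = 0.201). Grm8, another presynaptic group III receptor, was at 4.32, 2.91 and 4.46 CPM in NSM and at 3.35, 2.76 and 4.05 CPM in SM, with overlapping groups and a log2 fold change of -0.20 (SE 0.23).

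The group I receptor Grm5 was at 507, 546 and 511 CPM in NSM and at 572, 608 and 512 CPM in SM. SM3 lay at the level of the controls, and the log2 fold change of 0.11 (95% confidence interval -0.03 to 0.26) did not pass the test. Grm3 was at 123, 137 and 120 CPM in NSM and at 141, 148 and 127 CPM in SM, with a log2 fold change of 0.13 (SE 0.07, voom-limma adjusted p = 0.280). Grm2, an autoreceptor of cortical glutamatergic terminals, was at 2.29, 2.50 and 3.67 CPM in NSM and at 2.39, 2.49 and 2.99 CPM in SM. Its log2 fold change was -0.07 with a wide interval of -0.76 to 0.62.

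The sum of the cortical markers was higher in every SM library than in every NSM library, and Grm2 was not. With the mean log2 level of the cortical markers as a covariate the log2 fold change of Grm2 in males was -0.91 (unadjusted p = 0.00185, voom-limma adjusted p = 0.111). That of Grm8 was -0.65 (adjusted p = 0.230), and both were called. The share of all genes called in males with this covariate is not given here. The covariate was 0.158 to 1.067 in NSM and 1.69 to 3.195 in SM, without overlap. Its part and that of stress therefore cannot be told apart in males.

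In females, SF was compared with NSF. Of the 6 receptors 1, Grm2, was called, and it was lower in stressed females, against 1.73% of all tested genes called and 1.09% called lower. Grm2 was at 5.41, 2.89 and 6.80 CPM in NSF1 to NSF3 and at 2.29, 3.35 and 3.26 CPM in SF1 to SF3. NSF1 and NSF3 were the highest of all 12 libraries, and NSF2 lay among the stressed libraries. The log2 fold change was -0.64 (SE 0.28), with an unadjusted p of 0.0394 and an adjusted p of 0.948 by voom-limma. Grm2 was likewise called by edgeR and by DESeq2, at adjusted p values of 0.955 and 1.

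NSF1 and NSF3 were also the libraries with the highest sum of cortical glutamatergic neuron markers, while NSF2 had the lowest sum among females, 172 CPM. Without these 2 libraries, a choice made after the values were seen, the log2 fold change of Grm2 was 0.03 and no receptor was called. With the cortical markers as a covariate it was -0.40 (unadjusted p = 0.0325, voom-limma adjusted p = 1) and Grm2 was still called. The call was also lost without NSF1 (log2 fold change -0.53), without NSF3 (-0.38), without SF1 (-0.47) or without SF3 (-0.72).

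**Figure D3:**
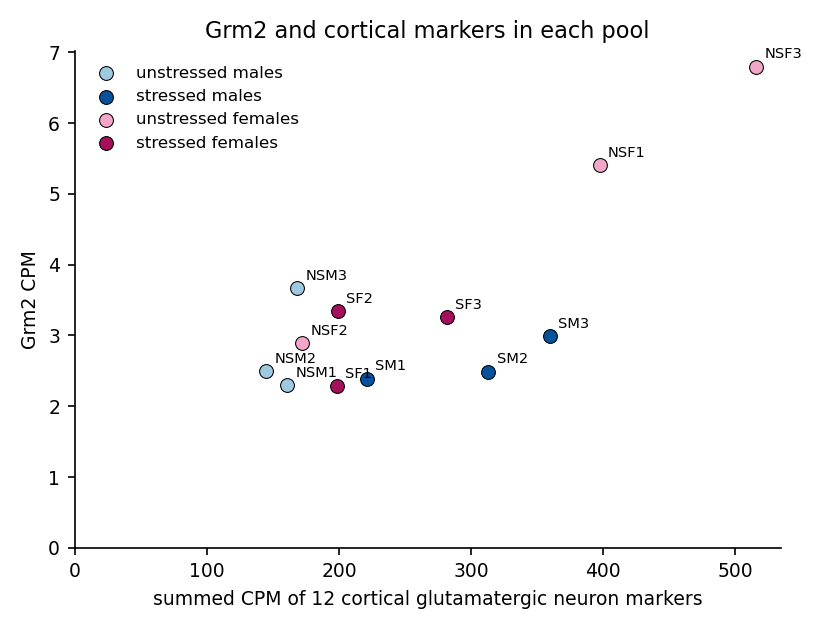
Grm2 CPM against the summed CPM of the 12 cortical glutamatergic neuron markers, with 1 labeled point per mRNA library. NSF1 and NSF3 are highest on both axes, while SM2 and SM3 have cortical sums of 313 and 360 CPM with Grm2 at 2.49 and 2.99 CPM.

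The other 5 receptors were not called in females. Grm5 was at 488, 558 and 482 CPM in NSF and at 558, 549 and 565 CPM in SF. The SF libraries were close together and 2 of them lay above all NSF libraries, with a log2 fold change of 0.13 (SE 0.07, voom-limma adjusted p = 0.948). Grm7 was at 92.8, 91.6 and 88.9 CPM in NSF and at 88.6, 84.3 and 85.2 CPM in SF. These groups did not overlap, which was so for 11.3% of all genes, and the log2 fold change was -0.08 (SE 0.04, voom-limma adjusted p = 0.948).

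Grm3 was at 119, 126 and 112 CPM in NSF and at 121, 125 and 120 CPM in SF, with a log2 fold change of 0.03 (SE 0.07). Grm4 was at 83.2, 101 and 87.5 CPM in NSF and at 90.0, 85.0 and 91.9 CPM in SF, with a log2 fold change of -0.02 and an interval of -0.24 to 0.19. Grm8 was at 4.53, 3.93 and 6.22 CPM in NSF and at 3.43, 5.26 and 4.48 CPM in SF, with a log2 fold change of -0.13 (SE 0.21). For these receptors the groups overlapped and the differences lay within the spread between pools. The median log2 fold change of the 6 receptors in females was -0.05 and that of all genes 0.00.

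Whether the stress effect differed between the sexes was tested by the sex-by-stress interaction, the female effect minus the male effect. None of the 6 receptors was called, against 4.42% of all genes. Voom-limma gave 0 receptors with an unadjusted p under 0.05, against 9.55% of genes, and edgeR and DESeq2 called 0. The smallest p was that of Grm4, at an interaction of 0.27 on the log2 scale (SE 0.14, unadjusted p = 0.0763, adjusted p = 0.585). The value for Grm2 was -0.57 (SE 0.43, adjusted p = 0.730), and its interval of -1.49 to 0.35 is too wide to set a difference or its absence. Without NSM1 the interaction of Grm4 was 0.39 and called, and without NSF2 that of Grm2 was -0.98 and called.

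**Figure D4:**
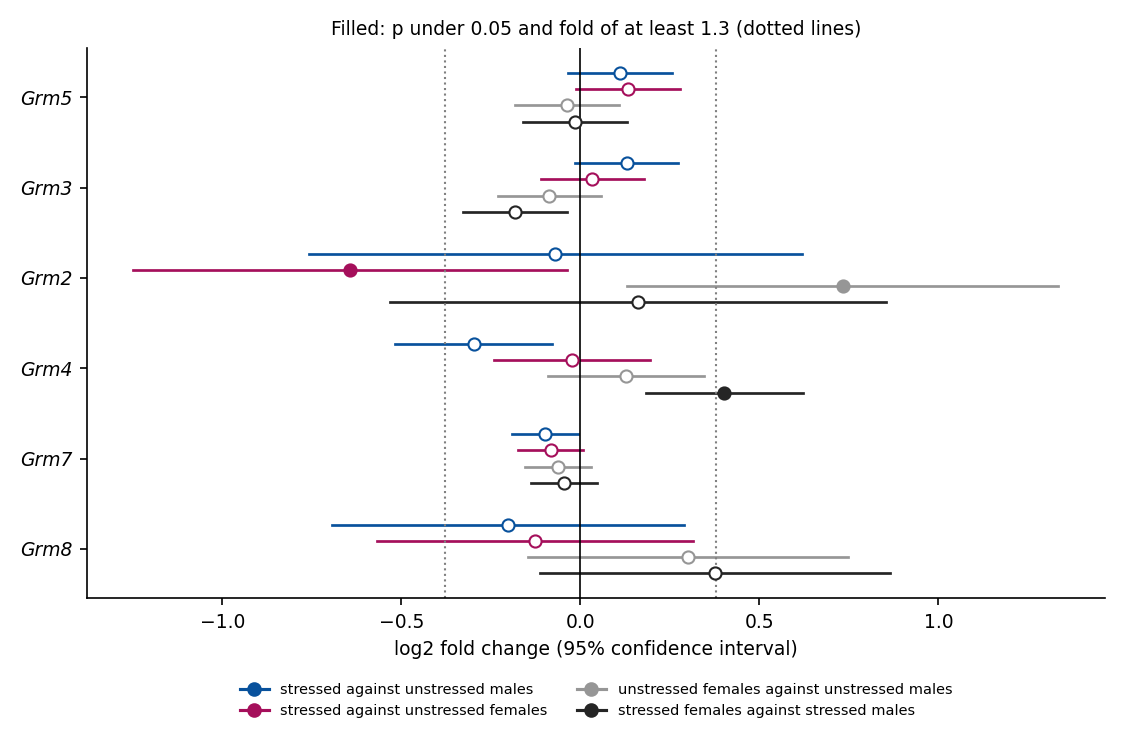
Log2 fold change of each receptor in 4 comparisons, with 95% confidence intervals from voom-limma and filled points for called receptors. Filled are Grm2 in stressed against unstressed females (-0.64), Grm2 in unstressed females against unstressed males (0.73) and Grm4 in stressed females against stressed males (0.40).

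Sex differences without stress were tested by NSF against NSM, the libraries that also served as controls of the stress comparisons. Of the 6 receptors 1 was called, Grm2, which was higher in females, against 5.31% of all genes called and 4.17% called higher. Its log2 fold change was 0.73 (SE 0.28), with an adjusted p of 0.233 by voom-limma, 0.155 by edgeR and 0.0467 by DESeq2. The groups overlapped, since NSF2 at 2.89 CPM lay below NSM3 at 3.67 CPM. Of the 12 cortical markers 7 were called higher in NSF than in NSM, as were 5 of the 7 thalamic and septal neuron markers. With the cortical markers as a covariate the log2 fold change of Grm2 was -0.13, and without NSF1 and NSF3 it was 0.06, and in neither case was a receptor called. The covariate was 1.314 to 3.841 in NSF, above every NSM library, so its part and that of sex cannot be told apart here. The call was lost too without NSM1 (0.58), without NSM2 (0.67), without NSF1 alone (0.62) or without NSF3 alone (0.46). Without NSF2, Grm8 was called as well, at a log2 fold change of 0.47.

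The other receptors differed little between unstressed females and males. Grm7 was lower in every NSF library than in every NSM library, and 19.5% of all genes did not overlap here, with a log2 fold change of -0.06 (SE 0.04). Grm8 had a log2 fold change of 0.30 (SE 0.21) and Grm4 of 0.13 (SE 0.10). For Grm3 and Grm5 the values were -0.09 and -0.04.

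Among stressed mice, SF against SM, 1 of the 6 receptors was called, Grm4, which was higher in females, against 5.55% of all genes called and 4.58% called higher. All SF libraries (85.0 to 91.9 CPM) lay above all SM libraries (60.2 to 72.2 CPM). The log2 fold change was 0.40 (SE 0.10), a fold of 1.32, with an unadjusted p of 0.0015 and an adjusted p of 0.0943 by voom-limma. The adjusted p was 0.0776 by edgeR and 0.0158 by DESeq2. With the replicate number as a block it was 0.0309 by voom-limma. Same-numbered libraries did not pair in this comparison (r 0.0169, -0.022 and -0.0238), so the block has no basis here. With the cortical markers as a covariate the log2 fold change was 0.38, and it was 0.39 without NSF1 and NSF3. Without SM2 it was 0.31 and without SF3 0.38, both under the fold criterion, with unadjusted voom-limma p values of 0.0125 and 0.00705.

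Markers of thalamic and septal neurons also differed between these groups. They summed to 55.5 to 64.3 CPM in SM and to 70.9 to 141 CPM in SF, and 6 of the 7 were called higher in SF. None of them was at 0, and their part in the Grm4 difference was not tested. Grm3 was the other receptor without overlap between SF and SM, where 20.4% of all genes did not overlap, and it was lower in females at a log2 fold change of -0.18 (SE 0.07, voom-limma adjusted p = 0.196). Grm8 had a log2 fold change of 0.38 (SE 0.23) and was called without SF1, at 0.54. Grm2, Grm5 and Grm7 had log2 fold changes of 0.16, -0.01 and -0.05.

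The genes that carry or limit mGluR signals were followed in 5 lists with 59 tested genes. In males 6 of the 59, 10.2%, were called (4 higher and 2 lower), against 6.44% of all genes. Without the fold criterion 20 of the 59 had an unadjusted p under 0.05, against 21.5% of all genes. In females voom-limma called 0 of the 59, with 1 at an unadjusted p under 0.05, while edgeR called 2 and DESeq2 called 1. The share called in all genes there was 1.73%.

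Of the 18 genes for group I coupling and scaffolds 1 was called in males, Arc, an immediate early gene of glutamatergic synapses, which fell by 0.53 on the log2 scale (SE 0.24, voom-limma adjusted p = 0.220). Arc was at 70.5 to 110 CPM in NSM and at 57.8 to 68.9 CPM in SM, and DESeq2 did not call it. Without the fold criterion 6 of the 18 had an unadjusted p under 0.05 in males, against 21.5% of all genes. By voom-limma 3 had an adjusted p under 0.05, and these fell short of the fold criterion. The share of all genes at that threshold is not given here, so this count has no background beside it. DESeq2 called 1 gene of the list higher. The median of this list in males was 0.02.

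Of the 13 genes for group II and III coupling and partners 2 rose in males. Adcy1, a calcium-stimulated adenylyl cyclase that Gi proteins inhibit, went from 205 CPM ± 9.75 (SD, n = 3) in NSM to 282 CPM ± 15.2 (SD, n = 3) in SM. Its log2 fold change was 0.46 (SE 0.10, voom-limma adjusted p = 0.0245). Kcnj3, a subunit of the potassium channel that Gi/o-coupled receptors open, rose from 18.8 to 19.3 CPM in NSM to 21.7 to 27.7 CPM in SM, at a log2 fold change of 0.42 (SE 0.18, voom-limma adjusted p = 0.207). Both were called in the interaction, at -0.63 for Adcy1 (adjusted p = 0.142, voom-limma) and -0.56 for Kcnj3 (adjusted p = 0.505). Neither interaction reached an adjusted p under 0.05. The NSF libraries ranged from 247 to 344 CPM for Adcy1 and from 19.8 to 37.9 CPM for Kcnj3. These interactions are not given without NSF1 and NSF3. With the cortical markers as a covariate 0 genes of this list were called higher in males by voom-limma. The covariate did not overlap between NSM and SM. With libraries scaled by library size only 1 gene of the list was called higher. The list's median log2 fold change in males was 0.09.

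Of the 11 genes for receptor desensitization 1 was called in males, Rgs4, which speeds the shut-off of Gq and Gi/o proteins. It was at 339 to 390 CPM in NSM and at 435 to 539 CPM in SM, and rose by a log2 fold change of 0.42 (SE 0.11, voom-limma adjusted p = 0.0598). It was not called when libraries were scaled by library size only. Another gene of the list, 1 of the 11, had a voom-limma adjusted p under 0.05 in males and fell short of the fold criterion. The share of all genes at that adjusted p is not given here. The median of this list was 0.00 in males.

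Of the 11 genes for glutamate release and uptake 1 rose and 1 fell in males. Another 1 had a voom-limma adjusted p under 0.05 and fell short of the fold criterion, and the share of all genes at that threshold is not given here. Slc17a7, the vesicular glutamate transporter of cortical neurons and itself a cortical marker, was at 4.02 to 16.4 CPM in NSM and at 39.5 to 162 CPM in SM, with a log2 fold change of 3.29 (SE 1.10, voom-limma adjusted p = 0.115). Slc1a6, a neuronal glutamate transporter, was at 4.71 to 5.19 CPM in NSM and at 3.64 to 3.90 CPM in SM, with a log2 fold change of -0.38 (SE 0.11, voom-limma adjusted p = 0.0701), and DESeq2 did not call it. N-acetylaspartylglutamate is an agonist of mGluR3. Of the 6 genes listed for its metabolism 0 were called by voom-limma, edgeR and DESeq2 in males. Without the fold criterion 2 of the 6 had an unadjusted voom-limma p under 0.05, against 21.5% of all genes. The median of this list in males was 0.00.

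Between the sexes, 8 of the 59 genes (13.6%) were called higher in NSF than in NSM, where 4.17% of all genes were. The 8 included Slc17a7 and Slc17a6, which are also cortical and thalamic and septal markers. In NSF, Slc17a7 was at 16.4 to 297 CPM, Adcy1 at 247 to 344 CPM and Kcnj3 at 19.8 to 37.9 CPM. The part of NSF1 and NSF3 in this count was not tested. In SF against SM 4 (6.78%) were called higher, where 4.58% of all genes were. The 4 genes in SF against SM were Shank3, Slc17a6, Elfn1 and Elfn2, named here after their values were seen. Elfn1 and Elfn2 are the listed binding partners of group III receptors in the postsynaptic membrane. Elfn1 was 1.68-fold and Elfn2 1.39-fold higher in SF than in SM, with adjusted p values of 0.106 and 0.0586 by voom-limma. Their means were also higher in NSF (18.9 and 97.9 CPM) than in NSM (14.5 and 80.7 CPM), without a call. A link to Grm4, called in SF against SM only, was not tested.

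mir-592, the precursor inside Grm8, was measured at 506, 467 and 497 CPM of small RNA reads in NSM and at 463, 458 and 507 CPM in SM. In females it was at 498, 557 and 679 CPM in NSF and at 505, 641 and 533 CPM in SF. The highest libraries were NSF3 and SF2, and stressed and unstressed groups overlapped in each sex. It ranked 133 of the 500 precursors tested, at 2439 to 6221 reads per library. The log2 fold change with stress was -0.05 in males (SE 0.11) and -0.05 in females (SE 0.11), and mir-592 was not called in either, where 5.2% and 4.8% of precursors were. It was not called in the interaction (0.00 on the log2 scale, SE 0.16), where 6.8% of precursors were. The female minus male difference was 0.23 on the log2 scale both without stress (SE 0.11, unadjusted p = 0.0587, voom-limma adjusted p = 0.338) and with stress (SE 0.11, unadjusted p = 0.0542, adjusted p = 0.587), and it passed the test in neither case, where 7.6% and 5.2% of precursors were called.

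Over the 12 pools the log2 CPM of mir-592 and of Grm8 moved together (Pearson r = 0.845, permutation p = 0.00038, Spearman rho = 0.734, permutation p = 0.00855, two-sided, 100000 resamples). This was the single relation tested. Without NSF3 and SM2, the pools farthest from the median of Grm8, r was 0.712 (permutation p = 0.0196) and rho 0.539 (permutation p = 0.113), so the rank relation no longer passed the test. After the mean of each group was subtracted r was 0.773. The libraries of the assays were made from separate RNA fractions of the same pools, so a pool's tissue makeup is shared between them.

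**Figure D5:**
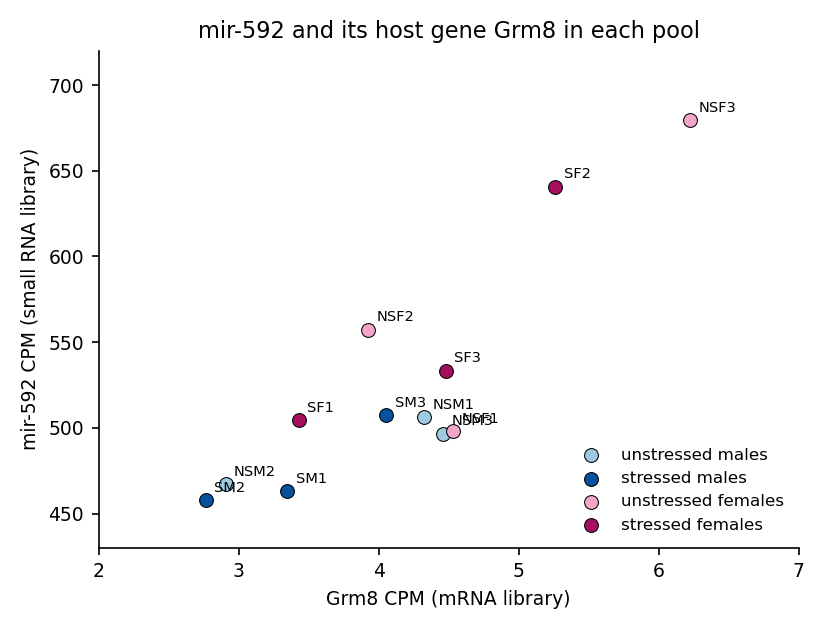
CPM of mir-592 in the small RNA library against CPM of Grm8 in the mRNA library of the same pool, with 1 labeled point per pool and axes that do not start at 0. NSF3 and SF2 are highest on both axes and SM2 is lowest on both.

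Among the receptors themselves the log2 CPM of Grm2 and Grm8 had r = 0.76 over the 12 libraries and that of Grm3 and Grm5 r = 0.743, while Grm3 and Grm8 had r = -0.845. These values describe 12 libraries that share 4 group means and their tissue makeup, and carry no test. Among the 14434 tested genes with at least 1 CPM on average, those with the pattern most like Grm5 were Pdpk1 (r = 0.975), Abi2 (r = 0.969) and Rbm27 (r = 0.966). For Grm3 they were Sp4 (r = 0.962), 2610002M06Rik (r = 0.935) and Csnk1g1 (r = 0.934). For Grm2 they were Gpr123 (r = 0.95), Slitrk1 (r = 0.945) and Camk1 (r = 0.939). For Grm4 they were Bcl9l (r = 0.97), Dlgap4 (r = 0.969) and Ranbp3 (r = 0.963). For Grm8 they were Tmem145 (r = 0.959), Disp2 (r = 0.943) and Mast1 (r = 0.939). Grm7, the receptor with the narrowest range, had the lowest such values, with Tbp (r = 0.9), Fam114a2 (r = 0.894) and Lcor (r = 0.888).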

How the data were processed

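The authors aligned mRNA reads with TopHat2 and small RNA reads with Bowtie and counted both with HTSeq, on NCBIM37/mm9 by the submitters' processing notes. The strand setting is not given in the sources used here. The values they deposited are raw counts per Ensembl gene and per miR precursor. Every library was assigned to its group by its label, and none was left out.

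Features above 5 reads in 80% or more of a condition's libraries were kept, scaled by TMM factors and fitted by voom-limma (R 4.3.3, limma 3.58.1, edgeR 4.0.16) with a mean per group over all 12 libraries. Adjustment of p followed Benjamini and Hochberg across an assay's tested features. DESeq2 1.42.0 and edgeR's quasi-likelihood test were alternatives, as were other scalings, a looser filter, the replicate number as a block, a covariate of cortical markers and leaving out libraries. Replicate numbers were taken to pair pools where the deviations of every same-numbered pair correlated above 0.1, which held for small RNA of stressed against unstressed females (r 0.112, 0.192 and 0.312), where the blocked log2 fold change of mir-592 was -0.047 (adjusted p = 0.963) and was not called. The tests were checked on simulated data. For correlations scipy 1.17.1 and numpy 2.4.6 were used under Python 3.11.15. Symbols and coordinates came from GENCODE vM1, in which 33789 of the 38293 identifiers had a symbol.

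The receptors, pathway lists and marker lists were chosen with earlier results of these data known. Named were the 6 receptors in every comparison, list genes called in a stress comparison (up to 4 a list by smallest p), and the 3 genes with the highest r to each receptor. The list of choroid plexus markers had 6 genes of which 5 were tested, and astrocyte markers (8 genes) and oligodendrocyte markers (7 genes) were checked too. In males 1 of the 8 astrocyte markers was called lower, 1 of the 5 choroid plexus markers and 2 of the 7 thalamic and septal markers were lower, 2 of the 12 cortical markers were higher, and 0 of the 11 medium spiny neuron and 0 of the 7 oligodendrocyte markers were called by voom-limma.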

Additional observations from a re-analysis of the deposited data

How the results depend on the processing

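For the 30 log2 fold changes of the 6 receptors in 5 comparisons, edgeR, DESeq2, scaling by library size or DESeq2's size factors, a filter of at least 1 read in any library and the replicate block each kept the direction and the side of the criteria for all 30. Calling by an adjusted p under 0.05 in the voom-limma fit gave 0 receptors in each of stressed against unstressed females, unstressed females against unstressed males and stressed females against stressed males. Same-numbered libraries deviated together at r -0.0291 to 0.315 in mRNA, with 5 of 12 pairs above 0.1 and 7 of 12 closest to their own number, and at r -0.0513 to 0.313 in small RNA, with 4 pairs above 0.1 and 5 closest to their own number. All pairs of a comparison were above 0.1 only for small RNA of stressed against unstressed females. The block left the counts of receptors called at 0 in males, 1 in females, 0 for the interaction, 1 in NSF against NSM and 1 in SF against SM, and mir-592 was called in no comparison with it.

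With the cortical marker covariate 2 receptors were called in males, 0 in NSF against NSM and 2 in SF against SM (Grm8 at 0.48). The number of all genes called with this covariate is given below for NSF against NSM only. The counts in males and in SF against SM therefore have no background from the same fit. The covariate did not overlap between the groups in males or in NSF against NSM. The log2 fold change then had the opposite sign in females for Grm3 (-0.018) and Grm8 (0.0098), in the interaction for Grm2 (0.50) and Grm5 (-0.17), and in NSF against NSM for Grm2 (-0.13), Grm3 (0.075), Grm5 (0.12) and Grm8 (-0.18). Without NSF1 and NSF3 together, a choice made after seeing the data, 0 were called in females and 0 in NSF against NSM, with the lone NSF2 assumed to vary like the other groups. The sign then turned in females for Grm2 (0.033), Grm3 (-0.042) and Grm8 (0.16), in the interaction for Grm2 (0.095) and Grm5 (-0.11), and in NSF against NSM for Grm5 (0.084). Scaling by library size turned mir-592 to 0.012 in females and 0.042 in the interaction. The cause of these shifts was not tested.

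With each library left out in turn, 0 to 1 receptors were called in males, in females and for the interaction, and 0 to 2 in each sex comparison. Log2 fold changes that turned sign ranged from -0.20 to 0.14 for Grm2 in males, -0.012 to 0.078 for Grm3, -0.077 to 0.060 for Grm4 and -0.30 to 0.056 for Grm8 in females, -0.044 to 0.090 for Grm5, -0.011 to 0.033 for Grm7 and -0.092 to 0.25 for Grm8 in the interaction, and -0.089 to 0.029 for Grm5 in SF against SM. For mir-592 they were -0.092 to 0.0060 in males, -0.15 to 0.062 in females and -0.11 to 0.096 in the interaction. The r between mir-592 and Grm8 stayed between 0.756 and 0.881. Grm2 and Grm8, at 95 to 320 and 130 to 293 reads, set the widest intervals.

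Over all genes, DESeq2 called 194 genes in females against 322, the filter of at least 1 read called 865 in females, 1350 for the interaction, 1541 in NSF against NSM and 1603 in SF against SM, against 322, 822, 988 and 1031, and the covariate called 450 in NSF against NSM. With a library left out, the count in females was 266 (without NSF3) to 647 (without NSF2). Cortical markers called higher in males numbered 8 of 12 by edgeR, by DESeq2 and with the block, against 2.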
